A study of Mus musculus with 20 samples.

Results

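The bipolar cell genes described here are 8 genes of bipolar cell identity and of the ON pathway: Grm6, Nyx, Trpm1, Pcp2, Prkca, Cabp5, Isl1 and Vsx1. They were taken as a list by name, and all 8 were found among the 35006 genes counted in each library. PolyA RNA was sequenced from 1 retina of each of 20 wild-type C57BL/6J mice, an inbred strain, and each library was a separate mouse. Young control mice (4) were 119 days old. Young NACET mice (6) received N-acetylcysteine ethyl ester, a cell-permeable cysteine ester, in their drinking water at 50 mg/kg daily over 5 days. By title, 4 of them were 129 and 2 were 119 days old, and for replicate 6 the title gives 119 and the batch tag 129 days. Old control mice (4) were 668 days old, and old NACET mice (6), given the same dose, were 668, 581 or 574 days old, with 2 mice at each age. All mice shared the strain, housing and diet. In the young groups 2 mice each were labelled female, and all old mice were labelled male, although old control replicate 4 carried Xist reads like the labelled females. The methods of the study describe male mice only.

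Bipolar cells carry the photoreceptor signal to the inner retina. In darkness, glutamate released by photoreceptors acts on the receptor encoded by Grm6 in ON bipolar cells, and through a Go protein this receptor keeps the TRPM1 cation channel closed. Light lowers glutamate, the channel opens and the cell depolarizes, whereas OFF bipolar cells use ionotropic glutamate receptors. Loss of GRM6, NYX or TRPM1 function is a known cause of congenital stationary night blindness.

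Libraries held between 17.7 and 31.1 M gene counts (M, 1e+06), and levels are given as CPM, counts per 1e+06 gene counts of the library. The tissue label was checked with marker lists: 8 rod markers together took 62799 to 95114 CPM, and no listed marker of any retinal cell type that was found in the files was at 0 throughout a group. In old NACET replicate 1, 5 lens markers summed to 9814 CPM, against at most 20.1 CPM in any other library. Corneal and conjunctival epithelium markers reached 402 CPM in old control replicate 2 and 383 CPM in young NACET replicate 4, and melanocyte and pigment cell markers 157 CPM in young control replicate 4. Their part in the levels of the bipolar cell genes was not tested.

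The DNA just before the start of each gene was read from RefSeq (build GRCm38.p6, 250 bases, coding strand, 12 windows for the 8 genes). The windows of Grm6, Trpm1 and Cabp5 are shown because these genes varied together across the libraries, as described further on. Capitals mark TAATCC, the core motif of the homeodomain factors OTX2 and CRX, or its reverse complement GGATTA. The windows lie at chr11:50850435-50850684 (plus strand), chr7:64153585-64153834 (plus strand) and chr7:13397905-13398154 (plus strand).
Grm6: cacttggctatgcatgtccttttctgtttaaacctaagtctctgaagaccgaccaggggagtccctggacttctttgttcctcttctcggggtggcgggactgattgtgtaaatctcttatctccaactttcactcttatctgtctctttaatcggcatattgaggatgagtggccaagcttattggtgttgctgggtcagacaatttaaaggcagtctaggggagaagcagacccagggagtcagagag
Trpm1: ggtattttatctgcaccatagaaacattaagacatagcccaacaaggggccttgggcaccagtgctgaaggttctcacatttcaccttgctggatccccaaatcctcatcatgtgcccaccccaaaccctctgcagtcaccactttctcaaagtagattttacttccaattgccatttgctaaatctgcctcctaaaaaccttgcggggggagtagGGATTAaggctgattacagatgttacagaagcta
Cabp5: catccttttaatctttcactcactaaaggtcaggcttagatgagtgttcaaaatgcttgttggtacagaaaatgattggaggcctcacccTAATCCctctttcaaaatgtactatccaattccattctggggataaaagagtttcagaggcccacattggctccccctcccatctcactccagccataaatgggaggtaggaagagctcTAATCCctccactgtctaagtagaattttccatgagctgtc
The Trpm1 window, the more upstream of the pair listed for this gene, held GGATTA 34 bases before the start. The Cabp5 window held TAATCC at 160 and at 41 bases before the start. The Grm6 window held neither form. Isl1 also had TAATCC, 177 bases before its start (chr13:116309689-116309938, minus strand), so that 3 of 8 genes, and 3 of their 12 windows, had the motif. The motif occurred in 6.25% of all 32851 windows of the same length, on either strand, which is a share of windows and not of genes. A related homeodomain core, TAATTA, was searched in the same way and occurred in 4.84% of all windows and in 1 of the 8 genes, Pcp2, 101 bases before 1 of its 4 listed starts (chr8:3625283-3625532, minus strand). These matches describe letters in the windows and carry no information on binding.

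In the mm9 genome, to which the authors aligned the reads, all 8 genes are annotated as protein-coding. Grm6 lies at chr11:50664187-50679710 (plus strand), and 11% of its exon bases are shared with the opposite-strand gene Gm12660, which had 18 to 64 counts per library. Nyx lies at chrX:13043236-13066439 (plus strand), Trpm1 at chr7:71298721-71414643 (plus strand) and Cabp5 at chr7:13983481-13994236 (plus strand). Pcp2 lies at chr8:3623371-3625545 (minus strand) and shares 46.9% of its exon bases with the opposite-strand gene 2900053A13Rik, which had 118 to 193 counts. Reads were counted without regard to strand, and the counting mode set aside as ambiguous the reads that could belong to either gene of such a pair. The level of Pcp2, and to a lesser degree that of Grm6, may therefore be understated, most of all per length of exon, by an amount that was not measured. Prkca lies at chr11:107794701-108205242, Isl1 at chr13:117088478-117099896 and Vsx1 at chr2:150506438-150515096, all on the minus strand. The microRNA gene Mir211 lies in the span of Trpm1 and had 0 to 4 counts.

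Between genes, levels were compared as CPM per kilobase (kb) of annotated exon. Prkca, the protein kinase C alpha of rod bipolar cells, had the highest mean over the 20 libraries on this scale, 36.9 CPM per kb. Pcp2 (28.7 CPM per kb) and Trpm1 (28.2 CPM per kb) followed, then Cabp5 (24.2), Grm6 (21.3) and Isl1 (20.8 CPM per kb). Vsx1, a transcription factor of subsets of cone bipolar cells, had 5.26 CPM per kb, and Nyx, which encodes the leucine-rich repeat protein nyctalopin, 3.65 CPM per kb. The ranges over libraries of the genes from Prkca to Isl1 overlapped with those of their neighbours in this order (31.2 to 44.9 for Prkca, 23.3 to 34.3 for Pcp2, 20.1 to 34.7 for Trpm1, 19.8 to 26.5 for Cabp5, 15.5 to 24.9 for Grm6 and 16.5 to 25.1 CPM per kb for Isl1). Vsx1 (4.28 to 6.76) and Nyx (2.83 to 4.96 CPM per kb) overlapped with each other and lay below the others in every library. Exon length counts every annotated isoform, and Trpm1 has 11.37 kb of exon but a longest transcript of 5.69 kb, so its level per kb depends most on this choice. Per kb of the longest transcript, Trpm1 (56.3 CPM per kb) and not Prkca (39.4 CPM per kb) was highest, and Vsx1 and Nyx were still lowest.

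**Figure D1:**
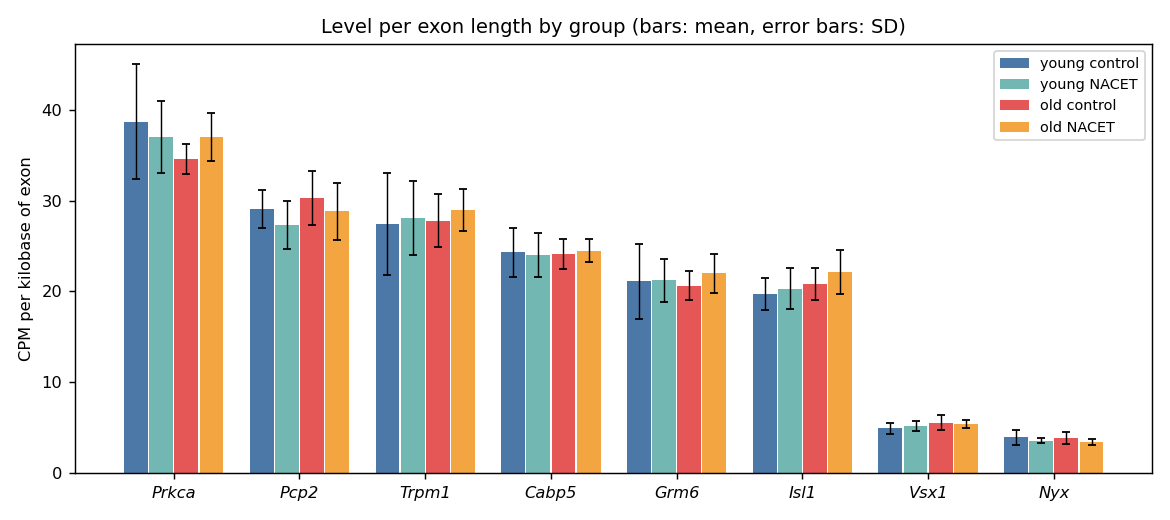
Level of each bipolar cell gene as CPM per kilobase of annotated exon (y axis, linear from 0), with bars for the group mean and error bars for the SD over 4 or 6 libraries. On this scale Prkca is highest and Vsx1 and Nyx lowest in each of the 4 groups; per kilobase of the longest transcript Trpm1 would be above Prkca in each group.

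Each gene was detected in every library, with 301 counts in the lowest case (Vsx1 and Nyx) and 9582 in the highest (Prkca). The metabotropic receptor gene Grm6 had 84.2, 128, 134 and 112 CPM in young control replicates 1 to 4, and 125, 107, 109 and 107 CPM in old control replicates 1 to 4. In young NACET libraries it ranged from 102 to 134 CPM (median 111), and in old NACET libraries from 106 to 135 CPM (median 118). Young control replicate 1 was the lowest of all 20 libraries, and the other 19 lay above 100 CPM, with overlapping ranges in all groups.

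Nyctalopin, encoded by Nyx on the X chromosome, helps to place TRPM1 at the dendritic tips of ON bipolar cells. Nyx had 15.6, 18.7, 25.7 and 21.6 CPM in young controls and 21.9, 16.8, 17.2 and 23.6 CPM in old controls. It ranged from 16.9 to 20.9 CPM (median 18.4) in young NACET and from 14.7 to 19.2 CPM (median 18.5) in old NACET libraries. Both control groups were spread more widely than the NACET groups, and their ranges overlapped with them.

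Trpm1, the transduction channel, had 229, 345, 375 and 298 CPM in young controls and 364, 296, 312 and 293 CPM in old controls. The range was 266 to 395 CPM (median 304) in young NACET and 284 to 361 CPM (median 338) in old NACET libraries. As for Grm6, young control replicate 1 was the lowest library. Pcp2, which encodes a modulator of Go signalling, had 54.4, 58.0, 51.7 and 49.1 CPM in young controls and 62.7, 50.1, 52.9 and 55.6 CPM in old controls. In NACET libraries it ranged from 44.3 to 56.1 CPM (median 50.1) in young and from 42.5 to 59.0 CPM (median 53.7) in old mice. Old control replicate 1 was highest and the groups overlapped.

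Prkca had 281, 386, 403 and 323 CPM in young controls, whereas old controls had 307, 291, 323 and 322 CPM. In young NACET libraries it ranged from 308 to 403 CPM (median 320) and in old NACET libraries from 303 to 365 CPM (median 330). Young controls held both the lowest and the highest Prkca value of all libraries, and their range enclosed that of the old controls. Cabp5, a calcium-binding protein of rod and some cone bipolar cells, had 59.9, 66.6, 66.7 and 52.2 CPM in young controls and 66.3, 56.3, 59.7 and 60.8 CPM in old controls. Its range was 50.0 to 66.8 CPM (median 60.5) in young NACET and 58.4 to 66.9 CPM (median 61.4) in old NACET libraries. Cabp5 was the least variable of the 8 genes, with a ratio of 1.34 between its highest and lowest library.

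The transcription factor gene Isl1, needed for ON bipolar cell differentiation and also used by amacrine and ganglion cells, had 53.5, 50.4, 51.5 and 43.3 CPM in young controls and 54.6, 46.0, 54.1 and 55.3 CPM in old controls. It ranged from 41.6 to 57.9 CPM (median 53.3) in young NACET and from 49.1 to 63.4 CPM (median 55.2) in old NACET libraries. The highest Isl1 values were in the old NACET group, which nevertheless overlapped with every other group. Vsx1 had 17.7, 17.2, 21.9 and 17.5 CPM in young controls and 25.6, 18.7, 19.6 and 20.3 CPM in old controls. NACET libraries had 16.2 to 22.4 CPM (median 19.7) in young and 17.6 to 22.7 CPM (median 20.5) in old mice. Over all 20 libraries the ratio of highest to lowest was 1.58 for Vsx1 and 1.75 for Nyx, the most variable gene.

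Counting error was smaller than this spread between mice. For Trpm1 in young controls, the coefficient of variation was 20.4%, against 1.23% for counting alone, and for Nyx in the same group it was 21.1% against 4.79%. The smallest coefficient of variation was that of Prkca in old controls, 4.80%.

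**Figure D2:**
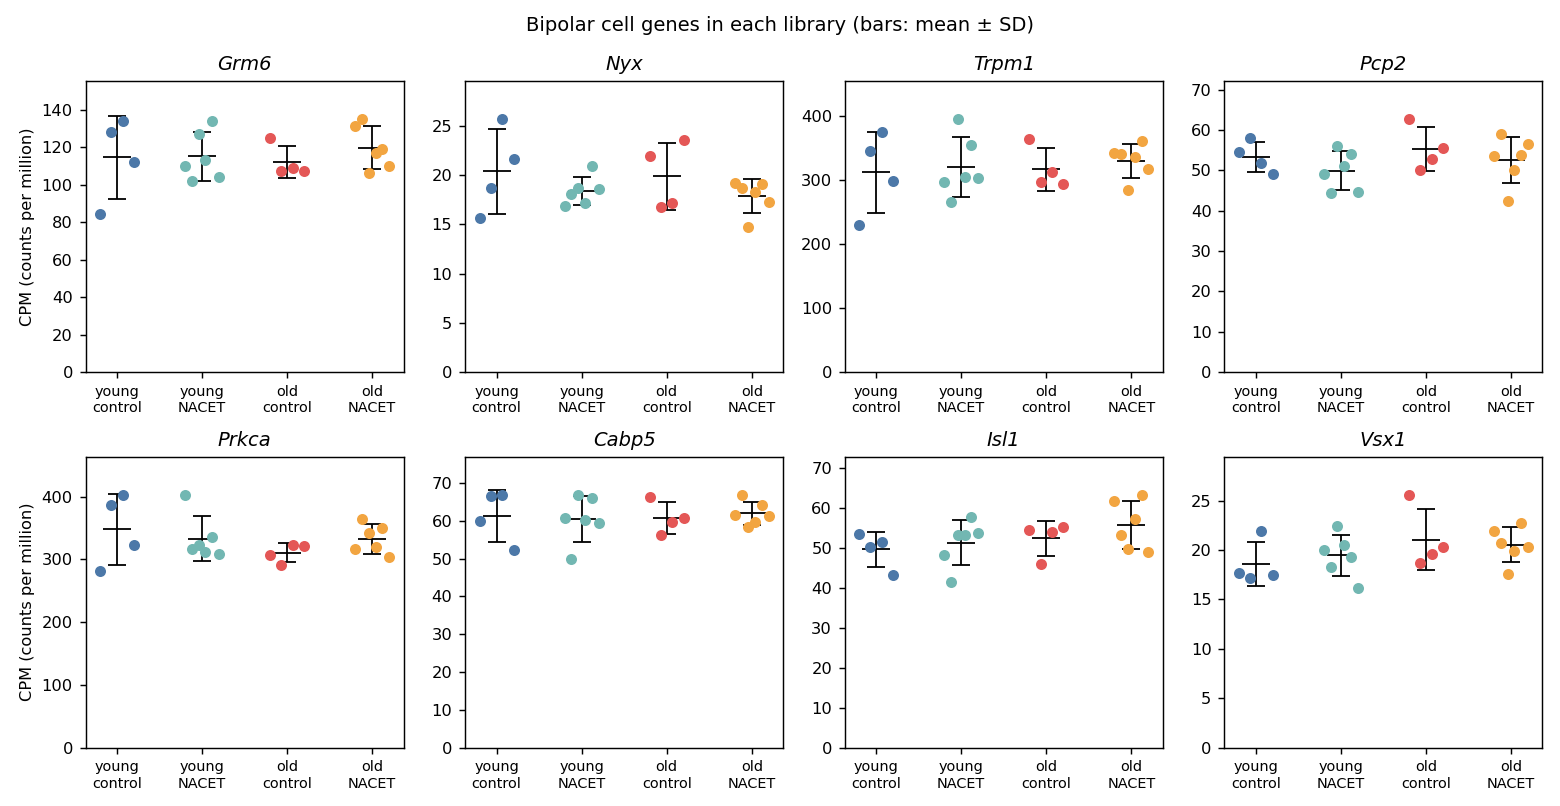
Level of each of the 8 genes (y axes, CPM from 0) in each library (points), by group (x axis), with bars for mean ± SD (n = 4 controls and 6 NACET mice per age). The 4 groups overlap for every gene, and young control replicate 1 is the lowest point for Grm6 (84.2 CPM), Trpm1 (229 CPM) and Prkca (281 CPM).

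Old and young controls were set side by side to ask whether these genes changed with age. By edgeR, 0 of the 8 genes were called at an adjusted p under 0.05 and 0 had an unadjusted p under 0.05, and DESeq2 also called 0 of 8. Over all genes tested, 1.42% were called (1.09% higher and 0.328% lower in old mice). Prkca had the smallest p. Its mean was 348 ± 56.6 CPM (SD over 4 mice) in young and 311 ± 14.9 CPM (SD over 4 mice) in old controls, with a log2 change of -0.21 (SE 0.097, 95% interval -0.42 to 0.0024, adjusted p 0.313 by edgeR). The low Prkca value of young control replicate 1 went against this difference, which was -0.29 without that library (adjusted p 0.0841 by edgeR). Without it, Grm6 had a log2 change of -0.20 and Trpm1 of -0.14, and neither was called. Without young control replicate 3, the highest Prkca library, the values moved the other way: Prkca had a log2 change of -0.13 (adjusted p 0.531 by edgeR), Grm6 of 0.0053, Trpm1 of 0.080 and Nyx of 0.048. With labelled sex as a covariate, Grm6 had 0.024 and Trpm1 0.091, so the direction for these genes depends on which young controls enter the fit. Grm6 was 115 ± 22.4 CPM (SD over 4 mice) in young and 112 ± 8.67 CPM (SD over 4 mice) in old controls, a log2 change of -0.084 (95% interval -0.33 to 0.16). Trpm1 had a log2 change of -0.026 (95% interval -0.29 to 0.24) and Nyx of -0.087 (-0.42 to 0.24). Trpm1, Grm6 and Nyx thus each had an interval on both sides of 0. Pcp2 had a log2 change of 0.0027 (-0.16 to 0.17), Cabp5 of -0.065 (-0.24 to 0.11), Isl1 of 0.028 (-0.16 to 0.22) and Vsx1 of 0.13 (-0.11 to 0.37). A change inside these intervals, in either direction, could not be told from none with 4 mice per group. The median log2 change was -0.045 for the 8 genes and -0.0068 for all genes tested. In whole retina, fewer bipolar cells and less RNA per bipolar cell cannot be told apart.

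Age and labelled sex overlapped in part. Of the 4 young controls, 2 were labelled female and no old mouse was, and Nyx, the X-linked gene, had the smallest p of the 8 when young mice were compared by labelled sex. In the 4 young libraries labelled female, Nyx had 25.7 and 21.6 CPM (controls) and 20.9 and 18.6 CPM (NACET), a mean of 21.7 CPM, against a mean of 17.6 CPM in the 6 labelled male. The highest male value was 18.7 CPM, in 1 library of each young group, so that of the females only NACET replicate 6, at 18.6 CPM, lay within the male range. With treatment as a covariate, the female minus male log2 difference for Nyx was 0.30 (SE 0.089, 95% interval 0.11 to 0.49). It had an unadjusted p of 0.00484 but an edgeR adjusted p of 0.943, in a comparison in which 0.0784% of genes were called, so it was not called. This comparison was added after the Nyx values had been seen. By title, the 2 young NACET mice labelled female were 119 and the 4 labelled male 129 days old. Labelled sex and age cannot be told apart within that group. The other 7 genes had differences from -0.069 (Pcp2) to 0.15 (Grm6 and Trpm1), with intervals on both sides of 0. Old control replicate 4, labelled male but with Xist reads, had the highest Nyx level of the old controls, 23.6 CPM. With the labelled sex as a covariate, the Nyx change with age turned from -0.087 to 0.16 (adjusted p 0.676 by edgeR).

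NACET in old age was examined by setting the treated old mice against the untreated ones. Again 0 of 8 genes were called by edgeR, 0 had an unadjusted p under 0.05, and DESeq2 called 0, where edgeR called 0.543% of all genes tested (0.260% higher and 0.284% lower). Nyx had the smallest p: 17.9 ± 1.71 CPM (SD over 6 mice) with NACET and 19.9 ± 3.39 CPM (SD over 4 mice) without, a log2 change of -0.16 (SE 0.10, 95% interval -0.37 to 0.051, adjusted p 0.482 by edgeR). Prkca had 332 ± 23.7 CPM (SD over 6 mice) with NACET, a log2 change of 0.088 (95% interval -0.044 to 0.22, adjusted p 0.549 by edgeR). Its difference had the opposite sign to that with age, and neither passed the test; both comparisons used the same old control libraries. Grm6 had a log2 change of 0.090 (-0.046 to 0.23) and Trpm1 of 0.053 (-0.085 to 0.19). Pcp2 had a log2 change of -0.078 (-0.24 to 0.082), Cabp5 of 0.023 (-0.076 to 0.12), Isl1 of 0.080 (-0.076 to 0.24) and Vsx1 of -0.039 (-0.21 to 0.14). The intervals for Cabp5 and Trpm1 were narrower here than in the age comparison. The median log2 change was 0.038 for the 8 genes and 0.0020 for all genes tested.

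All old controls were 668 days old, and only 2 of the 6 old NACET mice were. Within the 668-day mice, none of the 8 genes passed the test, and 0 of all 16839 genes tested did. Grm6 had a log2 change of 0.25 (SE 0.06, adjusted p 0.524 by edgeR) in these mice, larger than the 0.090 over all old mice. Among the 668-day NACET libraries was old NACET replicate 1, the library with lens markers, at 131 CPM of Grm6, beside replicate 2 at 135 CPM, and both lay above the 4 old controls (107 to 125 CPM). The 4 younger NACET mice had 106 to 119 CPM. Prkca had a log2 change of 0.12 within the 668-day mice, Trpm1 of 0.10, Isl1 of 0.13 and Nyx of -0.077.

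In young mice, the comparison of NACET with control asked for effects of NACET without old age. By edgeR 0 of 8 genes were called and 0 had an unadjusted p under 0.05, DESeq2 called 0 of 8, and 0.00% of all genes tested were called. At an unadjusted p under 0.05 there were 724 of all genes (4.36%), and DESeq2 also called 0 of all genes. Nyx had 18.4 ± 1.42 CPM (SD over 6 mice) with NACET and 20.4 ± 4.31 CPM (SD over 4 mice) without, a log2 change of -0.16 (95% interval -0.41 to 0.089). Pcp2 had a log2 change of -0.11 (-0.26 to 0.044) and Prkca of -0.071 (-0.31 to 0.16). The remaining 5 genes had log2 changes between -0.032 (Cabp5) and 0.054 (Vsx1). Grm6, at 115 CPM in both groups, had a log2 change of -0.0041 (-0.23 to 0.23), and Trpm1 of 0.026 (-0.23 to 0.29). The edgeR adjusted p was 1.00 for all 8 genes. Among mice of 119 days only (4 controls, 2 NACET), Isl1 had a log2 change of 0.17, Nyx of -0.043 and Vsx1 of -0.060. None of the 8 was called, and 0 of all 16733 genes tested were. These 2 NACET mice were both labelled female, against 2 of the 4 controls, so labelled sex was not balanced here.

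Old and young mice were also compared under NACET. Here 0 of 8 genes were called by edgeR, 0 had an unadjusted p under 0.05 and DESeq2 called 0. Of all genes tested, edgeR called 4.88% in this comparison (2.24% higher and 2.64% lower in old mice). The largest estimates were those of Nyx, -0.095 (SE 0.073, 95% interval -0.25 to 0.059, adjusted p 0.489 by edgeR), and Isl1, 0.068 (-0.091 to 0.23, adjusted p 0.650 by edgeR). Grm6 (0.0050, -0.15 to 0.16) and Trpm1 (-0.0039, -0.17 to 0.16) were near 0 on the log2 scale. Prkca, with 333 ± 35.6 CPM (SD over 6 mice) in young and 332 ± 23.7 CPM (SD over 6 mice) in old NACET mice, had a log2 change of -0.055 (-0.22 to 0.11). The median size of the log2 change, without sign, was 0.026 for the 8 genes and 0.093 for all genes tested.

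Whether NACET acted differently at the 2 ages was tested as an interaction over all 20 libraries. By edgeR 0 of 8 genes were called and 0 had an unadjusted p under 0.05, DESeq2 called 0 of 8, and 0.00% of all genes were called, while 1052 genes (6.19%) had an unadjusted p under 0.05 and DESeq2 called 88 of all genes. Prkca had the largest difference of differences, 0.16 on the log2 scale (SE 0.13, 95% interval -0.12 to 0.43, adjusted p 0.930 by edgeR). That of Vsx1 was -0.098 (-0.36 to 0.17) and that of Grm6 was 0.089 (-0.19 to 0.37). Nyx, which had a log2 change of -0.16 at both ages, had a difference of -0.0064 (-0.34 to 0.33).

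**Figure D3:**
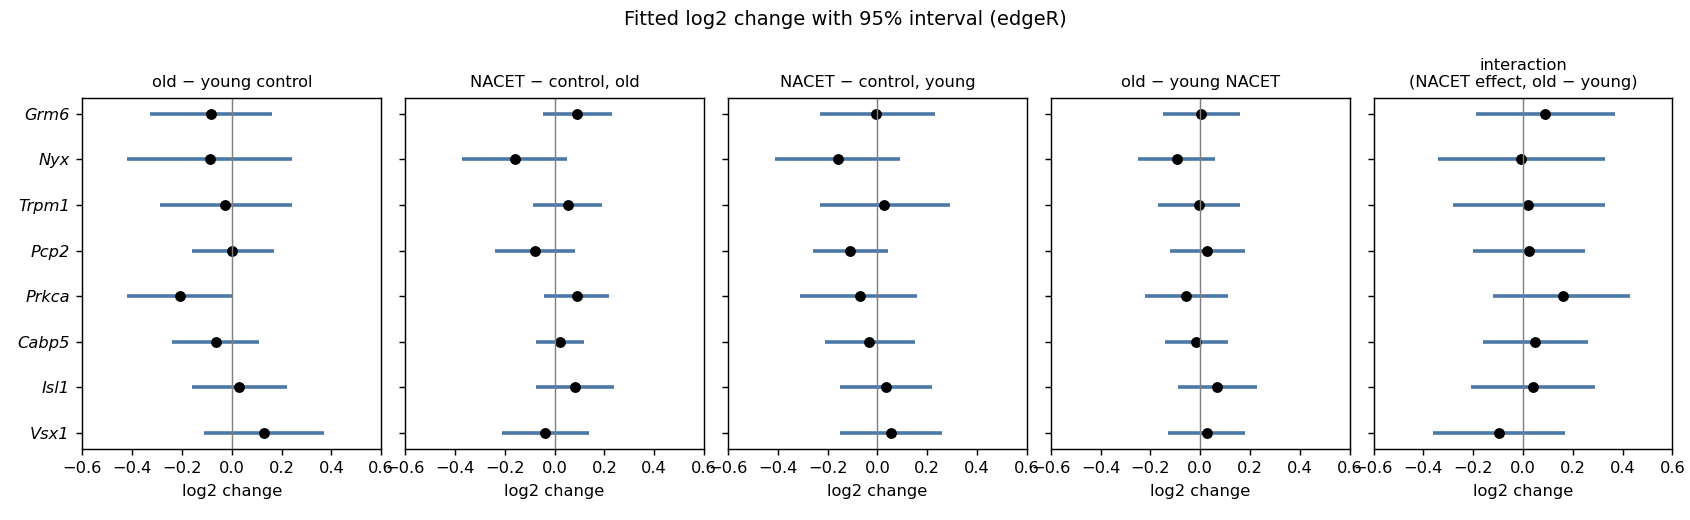
Fitted log2 change of each gene (x axes) with its 95% interval (lines) in the 5 comparisons (panels), by edgeR. Every interval includes 0, with Prkca between old and young controls (-0.42 to 0.0024) the closest to leaving it out.

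Of 40 other bipolar cell genes listed with the 8, 39 were found and tested, and 0 were called by edgeR in any of the 5 comparisons. At an unadjusted p under 0.05 there were 8 of 39 with age in controls, 10 with NACET in old mice, 4 with NACET in young mice, 9 with age under NACET and 3 in the interaction. All genes tested had 16.3%, 14.4%, 4.36%, 21.1% and 6.19% at this level. The 11 transcription factor genes held the smallest p with age. Otx2, which encodes a homeodomain factor of photoreceptors and bipolar cells, had 161, 177, 195 and 184 CPM in young controls and 224, 219, 225 and 217 CPM in old controls. These groups did not overlap, and the log2 change was 0.26 (SE 0.058, adjusted p 0.0580 by edgeR). How many of all genes had groups without overlap was not counted. Otx2 passed the threshold with DESeq2, which called 1 of 39 (adjusted p 0.00529), without young control replicate 3 (adjusted p 0.0415 by edgeR) and with all 4 groups in 1 fit (adjusted p 0.0455 by edgeR). Over all genes, these settings called 724 of 25177, 153 of 16587 and 461 of 16993. Otx2 was not called with labelled sex as a covariate (79 of 16484 over all genes) or in libraries labelled male only (69 of 16822). RLE scaling, robust fitting, the other filters and the block for replicate number did not call it either. Prdm8, a transcription factor of rod bipolar and OFF cone bipolar development, had 47.5 to 65.6 CPM in young and 68.9 to 78.6 CPM in old controls, with a log2 change of 0.27 (SE 0.086, adjusted p 0.153 by edgeR). The OFF cone bipolar marker Pcdh10, a protocadherin, had a log2 change of -0.26 (SE 0.089, adjusted p 0.185 by edgeR). Median log2 changes of the groups with age were 0.032 for the transcription factors, -0.075 for 8 ON cascade partners, -0.13 for 10 rod and ON cone bipolar markers and -0.069 for 10 OFF cone bipolar markers.

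With NACET in old mice, Rgs7 had the smallest p of the 39. It encodes the regulator of G protein signalling that, with RGS11, speeds the deactivation of Go in ON bipolar cells. It had 30.4, 25.0, 31.8 and 26.2 CPM in old controls and 32.0 to 38.3 CPM in old NACET mice, which did not overlap, with a log2 change of 0.27 (SE 0.067, adjusted p 0.0853 by edgeR). The share of all genes whose groups did not overlap was not counted. DESeq2 called 2 of 39, Rgs7 (adjusted p 0.0196) and the collagen gene Col11a1 (adjusted p 0.0349), and Rgs7 was also called without old control replicate 3 (adjusted p 0.0370 by edgeR). Over all genes DESeq2 called 373 of 25519, against 90 of 16562 by edgeR. Rgs7 was not called with age cohort as a covariate, in 668-day mice only or with all 4 groups in 1 fit. Over all genes, these settings called 1, 0 and 1. Col11a1 had a log2 change of 0.29 (SE 0.080, adjusted p 0.122 by edgeR) and Prdm8 of -0.15 (SE 0.047, adjusted p 0.161 by edgeR). In young mice under NACET, Sox6 (-0.30, SE 0.082), Scgn (-0.21, SE 0.073) and Bhlhe22 (0.15, SE 0.065) had the smallest p, with edgeR adjusted p of 1.00 and 0 of 39 called by DESeq2. Sox6 and Bhlhe22 encode transcription factors and Scgn encodes secretagogin, a calcium-binding protein of cone bipolar cells. With age under NACET, Prdm8 had a log2 change of 0.19 (SE 0.058, adjusted p 0.0653 by edgeR), the homeobox gene Sebox of -0.18 (SE 0.062, adjusted p 0.108 by edgeR) and Nnat, which encodes neuronatin, of 0.31 (SE 0.11, adjusted p 0.119 by edgeR). The highest Nnat value, 28.7 CPM, came from old NACET replicate 1, the library with lens markers, against 16.0 to 19.9 CPM in the other old NACET libraries. In the interaction, Rgs7 (0.25, SE 0.091), Scgn (0.23, SE 0.091) and Sox6 (0.28, SE 0.11) had edgeR adjusted p of 0.567, 0.669 and 0.685.

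In both NACET comparisons, the directions of the OFF cone bipolar markers were uneven, a group singled out after its values were seen. All 10 had a negative log2 change with NACET in young mice (median -0.078), and 8 of 10 had a positive one in old mice (median 0.076). In the interaction all 10 were positive (median 0.15), with a median of 0.0065 over all genes tested and the smallest edgeR adjusted p at 0.817. The interaction and both NACET comparisons share their libraries, so these counts are not separate observations.

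**Figure D4:**
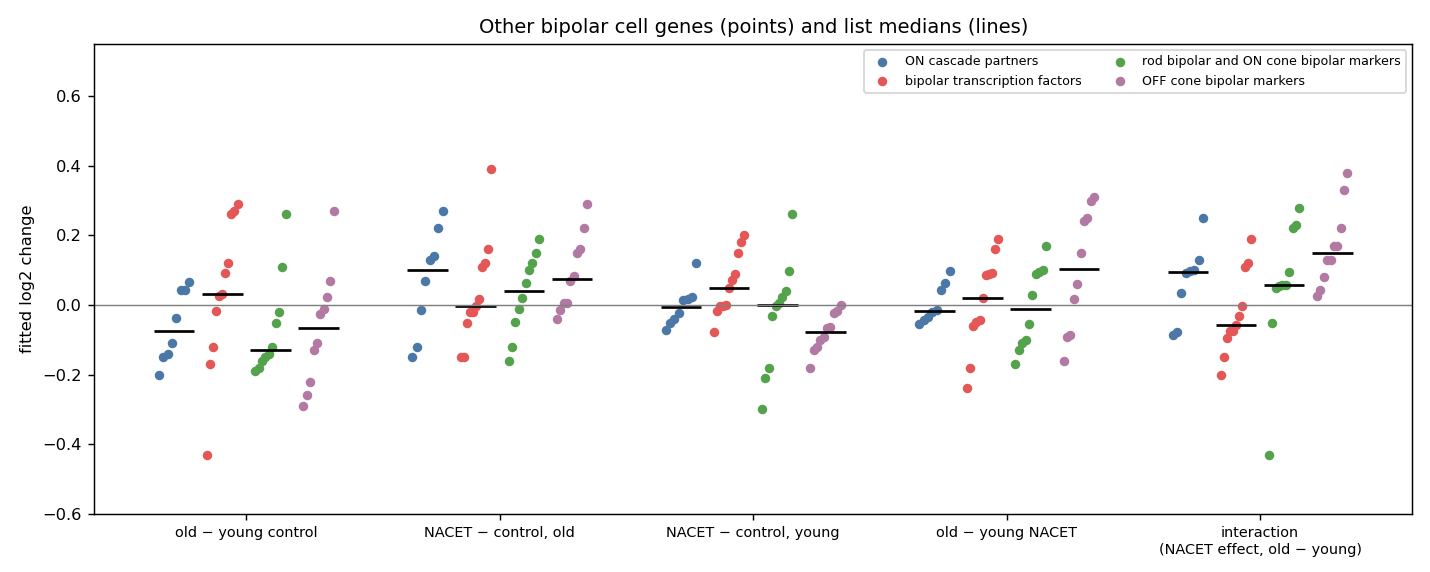
Fitted log2 change (y axis) of each of the 39 other bipolar cell genes (points, coloured by list) in the 5 comparisons (x axis), with lines for list medians. The points lie on both sides of 0 in all comparisons, except the OFF cone bipolar markers, which are all negative with NACET in young mice and all positive in the interaction.

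Across the 20 libraries, several of the 8 genes varied together. Pairs were correlated on log2(CPM + 1), over 28 pairs, with permutation p-values adjusted over the pairs; levels of 1 library share its preparation and its total count. Pearson's r ranged from 0.00 (Prkca with Isl1) to 0.91, with a median of 0.46. For 12 of 28 pairs r, and for 9 both r and Spearman's rho, had an adjusted permutation p under 0.05. The share of pairs of other genes at this level was not measured. The strongest pair was the receptor and the channel, Grm6 and Trpm1, with r of 0.91 and rho of 0.86 (permutation p 1e-05, the smallest that 100000 permutations can give, adjusted 0.00028). Without the libraries farthest from the median of Grm6 (young control replicate 1 and old NACET replicate 2), r was 0.88. Their r was also 0.91 on deviations from the group means, 0.89 within young NACET and 0.70 within old NACET mice. Trpm1 with Cabp5 had r of 0.70 and rho of 0.79 (adjusted permutation p 0.00588 and 0.00042; r of 0.84 without young control replicate 1 and young NACET replicate 3). Grm6 with Cabp5 had r of 0.64 and rho of 0.81 (adjusted permutation p 0.0126 and 0.00042; r of 0.75 without young control replicate 1 and old NACET replicate 2). Cabp5 with Pcp2 had r of 0.70 and rho of 0.79 (adjusted permutation p 0.00588 and 0.00042; r of 0.66 without young control replicate 4 and young NACET replicate 2). In each case the libraries left out were those farthest from the median of the first gene named. The 3 pairs among Grm6, Trpm1 and Cabp5 held without those libraries, but were not examined without the extreme libraries of Cabp5. The r of 0.65 between Cabp5 and Isl1 was 0.28 without young control replicate 4 and young NACET replicate 2, the extremes of Cabp5. For this pair rho was 0.36 (adjusted permutation p 0.155). Because different libraries were left out, this pair cannot be set against those 3 on that ground.

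The same variation went with a property of the libraries. For each library, a length measure was taken as the median log2 deviation from the mean of genes with long transcripts (5135 bases or more) minus that of genes with short ones (1833 bases or fewer), with 2392 genes in each set. It ranged from -0.23 in young control replicate 1 and -0.21 in young NACET replicate 2 to 0.14 in young control replicate 2. In the old groups it ranged from -0.09 to 0.09. Trpm1 followed it with r of 0.90 and rho of 0.78 (adjusted permutation p 8e-05 and 0.00052 over 8 tests), and r was 0.81 without young control replicate 1 and young NACET replicate 2 and 0.92 on deviations from the group means. Grm6 had r of 0.86 and rho of 0.76 (adjusted permutation p 8e-05 and 0.00052; 0.78 without these libraries). Cabp5, whose longest transcript has 1.78 kb and is itself short, had r of 0.68 and rho of 0.65 (adjusted permutation p 0.00317 and 0.00643; 0.65 without these libraries). For Prkca, with the longest transcript of the 8 (8.41 kb), r was 0.47 and for Isl1 0.47, and for Vsx1, Pcp2 and Nyx 0.43 (adjusted permutation p 0.0567 for each of the 5). By rank, Prkca (rho 0.52, adjusted permutation p 0.0398) and Nyx (rho 0.50, adjusted permutation p 0.0409) passed the threshold. Isl1 (rho 0.38), Vsx1 (rho 0.38) and Pcp2 (rho 0.40) did not (adjusted permutation p 0.101 for each). The median r over all 11960 genes with a length was 0.16, and it was 0.48 among those with long and -0.36 among those with short transcripts. An r at least as high as that of Trpm1 was found in 0.134% of all genes and in 0.543% of those with long transcripts, and for Grm6 in 0.727% and 2.59%. For Cabp5 these shares were 8.5% and 21.3%, and 1.84% among genes with short transcripts. Young control replicate 1 also had the most rod marker RNA of the young controls (95114 CPM) and the lowest Muller glia marker sum of all libraries (2088 CPM). The part of the length measure and of these cell types in the shared variation was not tested.

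**Figure D5:**
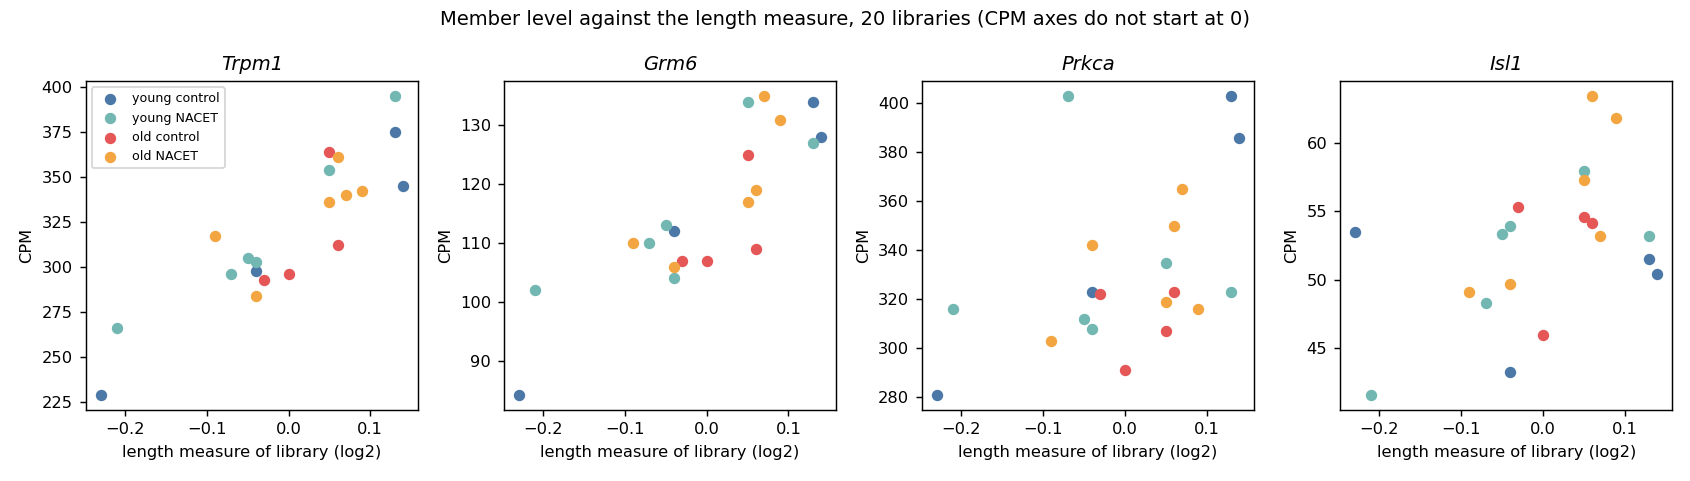
Level of Trpm1, Grm6, Prkca and Isl1 (y axes, CPM, not from 0) against the length measure of each library (x axes, log2), with points coloured by group. Trpm1 and Grm6 follow the measure (r of 0.90 and 0.86), whereas Prkca and Isl1 do so less (r of 0.47 each).

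With the length measure as a covariate, an alternative chosen after seeing the data, 0 of 8 genes were called in any comparison. Prkca then had a log2 change with age of -0.22 (SE 0.06, adjusted p 0.0708 by edgeR), beside -0.21 (SE 0.097) without it. The covariate raised the number of all genes called with age from 234 to 753. In the fits with the covariate, 103 of 16562 genes were called with NACET in old mice and 0 of 16588 with NACET in young mice. With age under NACET 822 of 16276 were called, and in the interaction 0 of 16993.

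Among 16993 genes tested, the genes most like each of the 8 over the 20 libraries were sought (Pearson r of log2 CPM, a description). Those named for Grm6 and Vsx1 included other bipolar cell genes, and those named for the remaining genes included none from the bipolar cell lists. For Grm6 the genes named were Gpr179 (r 0.91) and Trpm1 (r 0.89). Gpr179 encodes the orphan receptor that anchors RGS proteins at the ON bipolar dendrite. For Vsx1 the genes named were Rgs16 (r 0.73) and the bipolar transcription factor gene Bhlhe23 (r 0.73). Trpm1 was most like Fam40b (r 0.93) and Arhgap21 (r 0.92), and Cabp5 most like Herc1 (r 0.81) and Ntng1 (r 0.77). For Prkca they were Smarca2 (r 0.78) and Stk35 (r 0.78), and for Isl1 B3galt1 (r 0.82) and Zfp945 (r 0.82). Pcp2 was most like Cct8l1 (r 0.79) and Epha10 (r 0.79), and Nyx most like Enox (r 0.79) and Oxtr (r 0.79). Each r was picked as among the highest of all genes tested, and how high such values would be for unrelated genes was not measured. The part of the length measure in these r values was not tested.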

How the data were processed

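Raw read counts per gene were deposited, with no normalization. The authors made polyA libraries, aligned the reads to mm9 with TopHat2 2.1.0 and counted them over exons with HTSeq 0.11.2 without regard to strand, as labels and study methods state; the annotation used for counting is not given in the sources used here. An unnamed row (at most 0.00218% of the gene counts) was left out. Replicates of a group differed beyond sampling noise (chi-square per degree of freedom 2.21 to 25.3 over 42 pairs).

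Groups came from the labels. Each comparison was fitted on all genes with edgeR 4.0.16 in R 4.3.3 (TMM, default expression filter, which all 8 genes passed, quasi-likelihood test, Benjamini-Hochberg adjustment, called at an adjusted p under 0.05); the interaction used all 20 libraries. The study compared pairs of groups with DESeq2, run here (1.42.0) as an alternative. Scripts were tested on simulated data. The genes and lists were chosen with earlier results of these data known. All 8 genes were named; of the 40 other bipolar cell genes, those called or, with none called, the 3 with the smallest p; and the 2 genes most like each of the 8. mm9 positions are from GENCODE. Alternatives were RLE scaling, other filters, DESeq2, robust fitting, omission of each library, a block for replicate number, labelled sex, age cohorts, all groups in 1 fit and the length measure. Of the lists, Lrit3, Tfap2a, Tfap2b and Slc18a3 were not found by symbol and were not analysed here.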

Additional observations from a re-analysis of the deposited data

Results flagged for a closer look

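In 4 of 32 sets of 1 gene in 1 group, a single library stood apart from the others by Dixon's test, which chance does in about 1 in 20 sets. Vsx1 was 21.9 CPM in young control replicate 3, against 17.2 to 17.7 CPM in the other young controls. Prkca was 403 CPM in young NACET replicate 1 and 308 to 335 CPM in the other young NACET libraries. Grm6 was 125 CPM in old control replicate 1 and 107 to 109 CPM in the other old controls. Isl1 was 46.0 CPM in old control replicate 2, the library with the corneal epithelium markers, against 54.1 to 55.3 CPM.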

How the results depend on the processing

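Over 111 settings, which include leaving out each library, DESeq2 and the age cohorts, none of the 888 values of the 8 genes passed the threshold, and 113 uncalled values changed sign. The smallest adjusted p per comparison was 0.0708 (Prkca, age in controls), 0.238 (Grm6, NACET in old mice), 0.668 (Nyx, NACET in young mice), 0.291 (Isl1, age under NACET) and 0.559 (Prkca, interaction). Of the 39 other bipolar cell genes, 0 were called in the comparisons as reported. With age in controls, 1 (Otx2) was called with DESeq2, with all 4 groups in 1 fit and with the length measure as a covariate, and 0 to 1 when single libraries were left out. Over all genes, 724 of 25177 were called with DESeq2, 461 of 16993 in 1 fit and 753 of 16484 with the length measure. With NACET in old mice, 2 were called with DESeq2 and 0 to 1 when single libraries were left out (1, Rgs7, without old control replicate 3). Over all genes, 373 of 25519 were called with DESeq2 and 110 of 16729 without that library. With age under NACET, 1 was called with DESeq2 (Prdm8), 2 with labelled sex as a covariate (Prdm8 and Col11a1), 1 in labelled males only (Col11a1), 1 with the length measure (Sebox), and 0 to 2 when single libraries were left out (2, Otx2 and Prdm8, without young NACET replicate 1; 1, Sebox, without replicate 2). Over all genes with age under NACET, DESeq2 called 1312 of 25611 and the fit with labelled sex as a covariate 1099 of 16276. Labelled males only gave 1006 of 16493, and the length measure 822 of 16276. Without young NACET replicate 1 it was 681 of 16418, and without replicate 2 it was 697 of 16409. The cause of these differences between settings was not tested. Replicate numbers did not pair the mice (correlations of same-numbered libraries -0.14 to 0.12). With the replicate number as a block, 0 of the 8 and 0 of the 39 genes were called. Over all genes, that block called 163 of 16484 with age in controls and 422 of 16276 with age under NACET. It called 17 of 16562 with NACET in old mice, 6 of 16588 with NACET in young mice and 0 of 16993 in the interaction. Of the 8 genes, Nyx and Vsx1, with 301 counts in their lowest library, have the largest counting error; some of the 39 have fewer counts, down to 28 for Htr3a.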
